A study of Mus musculus with 6 samples.

Results

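Testicular macrophage genes were followed as a set of 10: Csf1r, Adgre1, Cd68, Cd74, Lyz2, C1qa, C1qb, C1qc, Mrc1 and Fcgr3. Each was matched by its symbol to an Ensembl identifier, and all 10 were found among the 53700 identifiers counted in each library. All 10 also had enough reads to be tested, among 21902 genes. The libraries were made from total RNA of whole testes of mice at postnatal day 45, 3 from mice of genotype MSL3 WT (WT) and 3 from mice of genotype MSL3 cKO (cKO), which carry a floxed Msl3 allele and are called conditional knockouts. All 6 mice share the strain label Msl3em1Forni/C57BL/6J. The recombinase, the cells in which it acts and the deleted exons are not given in the sources used here, and each library is labelled a biological replicate. Msl3, on the X chromosome, encodes a subunit of a histone acetyltransferase complex named male-specific lethal, and the study asks whether its loss alters spermatogenesis.

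Macrophages are the main resident immune cells of the testis. They lie in the interstitium beside the Leydig cells and along the tubules, where they are known for clearing debris and for supporting Leydig cell steroid production and spermatogonia. Their survival depends on the receptor encoded by Csf1r, which binds the cytokines CSF1 and IL34. Interstitial and peritubular populations are commonly told apart by CSF1 receptor and class II major histocompatibility complex (MHC) proteins. Whole-testis RNA mixes these cells with a large excess of germ cells, so fewer macrophages and less RNA per macrophage cannot be told apart in any value below.

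The libraries held 56991431 to 73766444 reads assigned to genes on the counted strand. Reads outside genes made up 4.976% to 6.941% of all reads, highest in cKO 2 and WT 2. Msl3 itself had 16.0, 18.9 and 15.9 CPM in WT 1 to 3 and 16.0, 14.8 and 15.8 CPM in cKO 1 to 3. CPM here is a read count relative to the library size, after trimmed mean of M values (TMM) scaling of the library sizes. The Msl3 groups overlapped and the edgeR quasi-likelihood adjusted p was 0.551, so the count does not separate the genotypes and the groups are named by their labels. Gene counts cover all exons, and a deleted part was not analysed here.

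No macrophage gene passed the edgeR quasi-likelihood test at an adjusted p of 0.05 over all tested genes: 0 of 10, where 0.0183% of all tested genes did. The estimates were lower in cKO for 9 of the 10 genes, against 49.3% of all tested genes, and Mrc1 alone was higher. The median log2 fold change of the 10 was -0.24, where that of all tested genes was 0.0. On the lower side 5 genes had an unadjusted p under 0.05 (Lyz2, C1qa, C1qb, C1qc and Fcgr3), beside a background of 6.54%, and 1 on the higher side (Mrc1), beside 7.33%. The CPM of the 2 groups did not overlap for Fcgr3, lower in cKO, and for Mrc1, higher in cKO. Over all tested genes 8.85% were separated in the lower direction and 10% in the higher. Short genes in general also tended to lower values. Within their own length bands, 7 members lay below the lower quartile and 1 above the upper quartile. WT 2 held the highest value of most of the set, as given below.

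**Figure D1:**
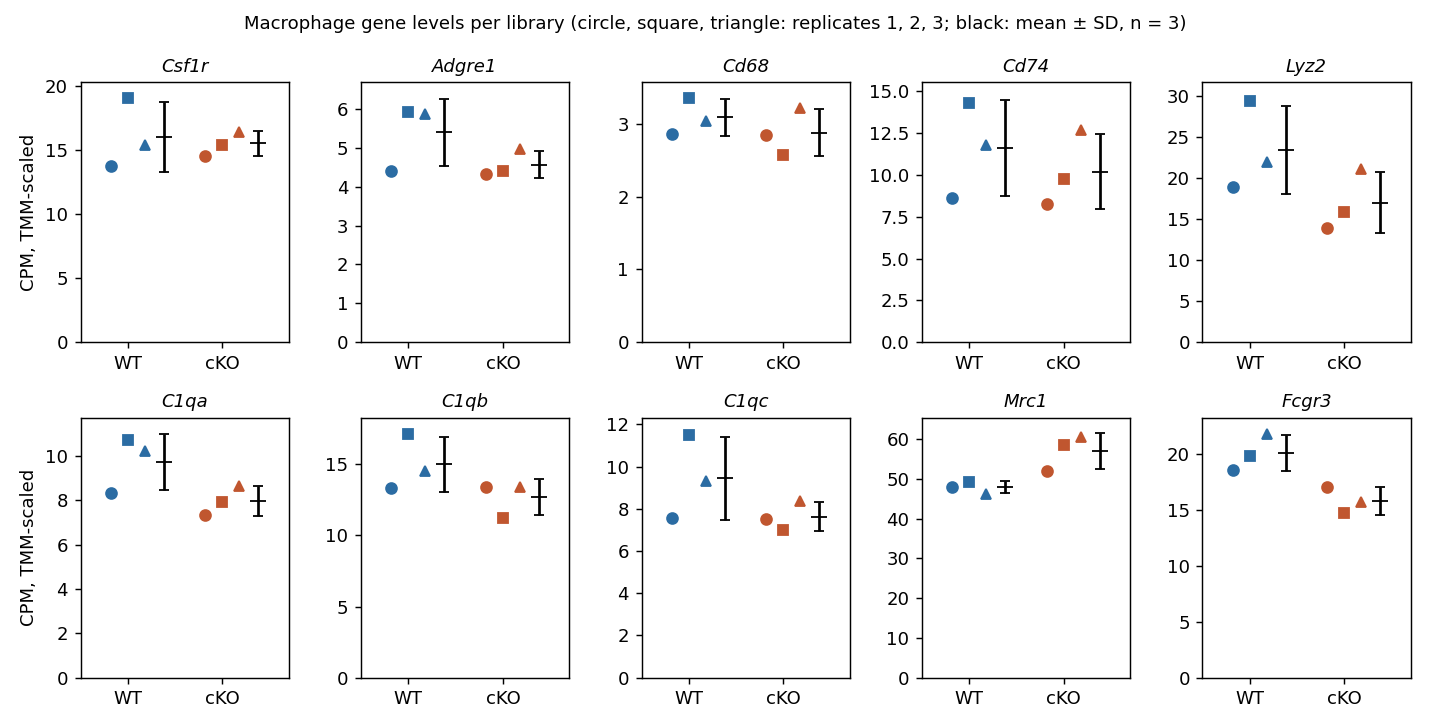
Level of each of the 10 macrophage genes in each library, in CPM on axes that start at 0; symbols are single libraries and black bars the mean ± SD (n = 3). WT 2 (blue square) is the highest point of 8 panels, while all 3 cKO libraries lie above all WT libraries for Mrc1 and below them for Fcgr3.

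The set was present at moderate levels that differed between genes once exon length was taken into account. In WT, Lyz2, which encodes the lysozyme of myeloid cells, had the highest mean level per kilobase of exon, 17.8 ± 4.08 CPM per kb (SD, n = 3). It was followed by C1qb with 13.8 ± 1.77 and Fcgr3 with 11.6 ± 0.917 CPM per kb (SD, n = 3 each). The WT ranges of Lyz2 and C1qb overlapped, as did those of C1qb and Fcgr3. C1qa (9.35 ± 1.2), Mrc1 (7.51 ± 0.238), Cd74 (6.91 ± 1.71) and C1qc (4.89 ± 1.02 CPM per kb; SD, n = 3 each) came next, and among these C1qa was separate from its neighbours in the order. At the lower end were Csf1r with 2.78 ± 0.473, Cd68 with 2.46 ± 0.202 and Adgre1 with 1.67 ± 0.267 CPM per kb (SD, n = 3 each), the first 2 with overlapping ranges. In cKO the order was the same except that Mrc1, at 8.95 ± 0.706 CPM per kb (SD, n = 3), stood above C1qa at 7.65 ± 0.640 CPM per kb (SD, n = 3).

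Csf1r, the receptor on which macrophages depend, was nearly level between the genotypes. It had 13.7, 19.0 and 15.4 CPM in WT 1 to 3 and 14.5, 15.4 and 16.4 CPM in cKO 1 to 3. The cKO values lay inside the WT range. Its log2 fold change was -0.05 (SE 0.11, edgeR adjusted p 0.869), and the 95% interval put the cKO level between 81.2% and 114.0% of the WT level. Without WT 2 the estimate turned to 0.09 (edgeR adjusted p 0.846).

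Adgre1, which encodes the F4/80 antigen used to stain mouse macrophages, had 4.41, 5.93 and 5.87 CPM in WT and 4.34, 4.41 and 4.97 CPM in cKO. WT 1 lay among the cKO libraries, and the other WT libraries lay above them. The log2 fold change was -0.24 (SE 0.13, edgeR adjusted p 0.426). Cd68, a glycoprotein of the lysosomal membrane, was the gene with the fewest reads, 144 to 218 per library. Its levels of 2.86, 3.36 and 3.04 CPM in WT and 2.85, 2.57 and 3.22 CPM in cKO overlapped. The 95% interval of Cd68 ran from 76.6% to 114.0% of the WT level, and that of Adgre1 from 69.4% to 103.0%.

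Cd74 encodes the invariant chain that guides class II MHC molecules to their peptides. Its level varied between libraries of 1 genotype more than between genotypes: 8.61, 14.3 and 11.8 CPM in WT and 8.28, 9.77 and 12.7 CPM in cKO. The log2 fold change was -0.18 (SE 0.18, edgeR adjusted p 0.682). WT 2 was highest, WT 1 and cKO 1 were lowest, and without WT 2 the estimate was -0.0. H2-Aa, a class II MHC chain, was also highest in WT 2 and lowest in WT 1 and cKO 1, with 4.41, 8.06 and 6.95 CPM in WT and 4.62, 5.06 and 6.92 CPM in cKO. The number of Cd74 reads per H2-Aa read stayed between 1.7 and 1.95 in the 6 libraries.

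Lyz2 had the largest estimate of the set. It had 19.0, 29.4 and 22.0 CPM in WT and 14.0, 15.9 and 21.2 CPM in cKO. WT 2 stood well above the rest, cKO 1 and cKO 2 were the lowest, and cKO 3 lay within the WT range. The log2 fold change was -0.47 (SE 0.17, unadjusted p 0.0155, edgeR adjusted p 0.305). It was -0.27 without WT 2 and -0.65 without cKO 3. Without the filter on low counts edgeR called it (adjusted p 7.5e-05), where 2.07% of genes were called. Lyz1, the neighbouring near-copy that is typical of intestinal Paneth cells, had 2 to 7 reads per library, and 5.958% of the 75-base stretches of Lyz2 transcripts also occur in Lyz1. The deposited counts keep reads that map to several places on a line of their own, which was left out here. Reads from that share may therefore be missing from the counts of both genes.

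C1qa, C1qb and C1qc encode the A, B and C chains of complement C1q, the recognition molecule of the classical pathway, which macrophages produce. The 3 genes lie side by side on the minus strand of chromosome 4 (GRCm38, chr4:136880129-136898803 from the start of C1qb to the end of C1qa in the GENCODE M21 annotation). Start-site windows from RefSeq (GRCm38.p6), 250 bases before to 50 after the start, are held for C1qb (chr4:136886151-136886450) and C1qc (chr4:136892865-136893164). They are shown because these chains were counted at similar ratios in every library. Capitals mark matches on either strand to GAGGAA, a core of the sites bound by PU.1 (the myeloid factor encoded by Spi1), and to TGCTGA, another of the 3 elements searched.
C1qb: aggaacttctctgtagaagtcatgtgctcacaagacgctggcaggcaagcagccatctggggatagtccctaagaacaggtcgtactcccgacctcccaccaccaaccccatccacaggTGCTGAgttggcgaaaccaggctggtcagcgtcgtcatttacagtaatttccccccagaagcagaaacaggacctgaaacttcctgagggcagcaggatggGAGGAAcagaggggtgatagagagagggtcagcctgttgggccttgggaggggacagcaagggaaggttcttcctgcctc
C1qc: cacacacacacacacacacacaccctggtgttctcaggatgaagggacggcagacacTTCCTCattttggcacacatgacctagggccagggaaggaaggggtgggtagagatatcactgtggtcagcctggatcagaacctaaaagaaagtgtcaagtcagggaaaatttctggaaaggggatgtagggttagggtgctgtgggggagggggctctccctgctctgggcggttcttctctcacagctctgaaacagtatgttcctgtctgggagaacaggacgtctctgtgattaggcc
The C1qb window holds both elements and the C1qc window holds GAGGAA alone, on the opposite strand. GENCODE places the start of C1qc (chr4:136889804-136893065) inside the C1qc window, upstream of the RefSeq start. Of 32851 RefSeq windows of 300 bases, 28.3% hold GAGGAA and 19.5% hold TGCTGA on either strand. A match describes the letters only.

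The level of C1qa was 8.30, 10.7 and 10.2 CPM in WT and 7.32, 7.90 and 8.65 CPM in cKO. C1qb had 13.3, 17.1 and 14.5 CPM in WT and 13.4, 11.2 and 13.4 CPM in cKO. C1qc had 7.55, 11.5 and 9.32 CPM in WT and 7.52, 7.01 and 8.36 CPM in cKO. For all 3 chains WT 2 was highest, WT 3 next, and WT 1 lay among the cKO libraries, so the groups overlapped. The log2 fold changes were -0.29 for C1qa (SE 0.11), -0.24 for C1qb (SE 0.11) and -0.31 for C1qc (SE 0.14). Their unadjusted p of 0.0231, 0.0451 and 0.0444 did not survive adjustment (edgeR adjusted p 0.310, 0.350 and 0.350). The chains kept similar proportions, 1.42 to 1.83 C1qb reads and 0.887 to 1.08 C1qc reads per C1qa read, with overlapping groups. C1qa reads per Csf1r read were 0.605, 0.560 and 0.664 in WT and 0.504, 0.512 and 0.526 in cKO, without overlap. Lyz2 reads per Csf1r read did not overlap either, while Fcgr3 reads per Csf1r read did. These ratios were chosen with the values in view and carry no test, and Csf1r is much the longer gene.

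Fcgr3 and Mrc1 were the members whose libraries were separated by genotype, in opposite directions. A count of 1 in 10 each way is close to the 8.85% and 10% of all tested genes, so the count itself is not a result about the set. Fcgr3 encodes a low-affinity receptor for immunoglobulin G that signals through the Fc receptor gamma chain. Mrc1 encodes the mannose receptor CD206, an endocytic receptor of tissue macrophages that lymphatic and sinusoidal endothelium also carries. Their RefSeq windows (Fcgr3, chr1:171059354-171059653, minus strand, the first listed of 2; Mrc1, chr2:14229164-14229463, plus strand) are shown with the same marking, as the pair that differed in direction. The Fcgr3 window lies inside the GENCODE span of the gene (chr1:171051174-171064935), which has a start further upstream.
Fcgr3: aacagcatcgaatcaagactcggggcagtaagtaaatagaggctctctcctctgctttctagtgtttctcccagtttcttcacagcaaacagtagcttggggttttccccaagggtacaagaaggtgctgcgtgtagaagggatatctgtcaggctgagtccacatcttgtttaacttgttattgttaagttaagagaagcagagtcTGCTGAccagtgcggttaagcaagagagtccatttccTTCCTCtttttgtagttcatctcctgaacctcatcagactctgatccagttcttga
Mrc1: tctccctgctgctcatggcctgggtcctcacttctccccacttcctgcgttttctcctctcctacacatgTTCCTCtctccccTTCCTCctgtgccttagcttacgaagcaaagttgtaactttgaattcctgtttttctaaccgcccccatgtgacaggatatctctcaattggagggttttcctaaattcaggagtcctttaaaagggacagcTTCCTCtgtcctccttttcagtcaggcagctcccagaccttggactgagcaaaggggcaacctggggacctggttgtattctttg
Mrc1 has 3 GAGGAA matches, all on the opposite strand, and Fcgr3 has 1 of each element. Windows were held for 6 of the 10 members, C1qb, C1qc, Cd68, Fcgr3, Lyz2 and Mrc1. Of these, 5 hold GAGGAA and 3 hold TGCTGA, and none holds TATAAA on either strand, which 13.6% of all windows do.

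Fcgr3 had 18.6, 19.8 and 21.8 CPM in WT and 17.1, 14.7 and 15.7 CPM in cKO. Every cKO library lay below every WT library, with cKO 1 close to WT 1. Its log2 fold change was -0.34 (SE 0.088, unadjusted p 0.00234, edgeR adjusted p 0.276), with a 95% interval of 69.2% to 90.3% of the WT level. DESeq2 called it with an adjusted p of 0.0482, where 1.78% of the 11711 genes given an adjusted p were called. So did edgeR without cKO 1 (-0.40, adjusted p 0.0395, 2.82% of genes called) and without the filter on low counts (-0.35, adjusted p 0.0174, 2.07% called). The sign was the same in all 15 alternative fits, with an adjusted p from 0.0174 to 0.730. Fcgr2b, a nearby gene of an inhibitory receptor, shares 5.424% of the 75-base stretches of Fcgr3. Reads from that share may be missing from the counts of both genes. Fcgr2b had 2.59, 4.33 and 3.39 CPM in WT and 2.33, 3.91 and 4.52 CPM in cKO, with overlap.

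Mrc1 had 48.0, 49.3 and 46.3 CPM in WT and 51.9, 58.6 and 60.5 CPM in cKO. The WT libraries were close together and every cKO library lay above them. The log2 fold change was 0.25 (SE 0.074, unadjusted p 0.00542, edgeR adjusted p 0.288), with a 95% interval of 106.0% to 133.0% of the WT level. It was called without cKO 1 (0.31, edgeR adjusted p 0.0340, where 2.82% of genes were called) and in no other of the 15 alternative fits. DESeq2 gave an adjusted p of 0.0882. Within libraries, there were 2.58, 2.49 and 2.13 Mrc1 reads per Fcgr3 read in WT and 3.03, 3.99 and 3.85 in cKO. Mrc1 reads per Csf1r read were 3.50, 2.59 and 3.01 in WT and 3.58, 3.79 and 3.68 in cKO, so this ratio was separated too, by a narrow gap between WT 1 and cKO 1. These ratios were chosen with the values in view and carry no test.

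**Figure D2:**
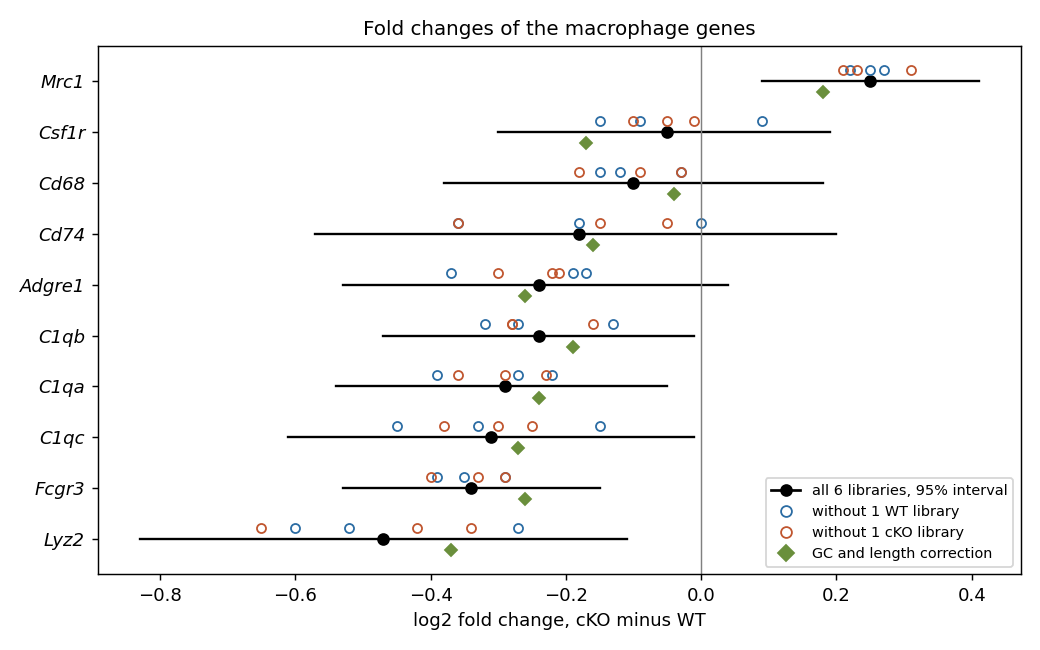
Log2 fold change of cKO against WT for each macrophage gene: black points and lines are the fit of all 6 libraries with its 95% interval, open circles the fits without 1 library, green diamonds the fit corrected for GC content and transcript length. Mrc1 stays to the right of 0 in every fit shown, Fcgr3, Lyz2 and the 3 C1q genes stay to the left, and Csf1r crosses to 0.09 without WT 2.

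Members varied together from library to library rather than by genotype alone. WT 2 held the highest value of 8 of the 10 genes, and the lowest values were in cKO 1 for 4 and in cKO 2 for 4. On the log2 CPM scale the members deviated from their own means by 0.28 on average in WT 2 and 0.11 in WT 3. The average deviation was -0.11 in WT 1, -0.17 in cKO 1, -0.16 in cKO 2 and 0.05 in cKO 3. WT 1 thus resembled the cKO libraries and cKO 3 lay between the WT libraries. Pairwise Pearson correlations over the 6 libraries, given as descriptions of values that share those libraries, had a median of 0.79 among the 36 pairs without Mrc1 and of 0.91 among the 3 C1q pairs. Mrc1 correlated with the others between -0.93 (Fcgr3) and 0.13 (Csf1r). Without WT 2 the median became -0.14, 8 of 10 estimates stayed below 0 and Fcgr3 alone kept an unadjusted p under 0.05 on the lower side and was separated there, beside 2.9% and 11.8% of all genes. Without WT 1 the median was -0.36, with 7 genes on the lower side at that level and 6 separated there, beside 9.66% and 19.0% of all genes. Without cKO 3 it was -0.32, with 4 and 5, beside 5.98% and 14.9%.

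**Figure D3:**
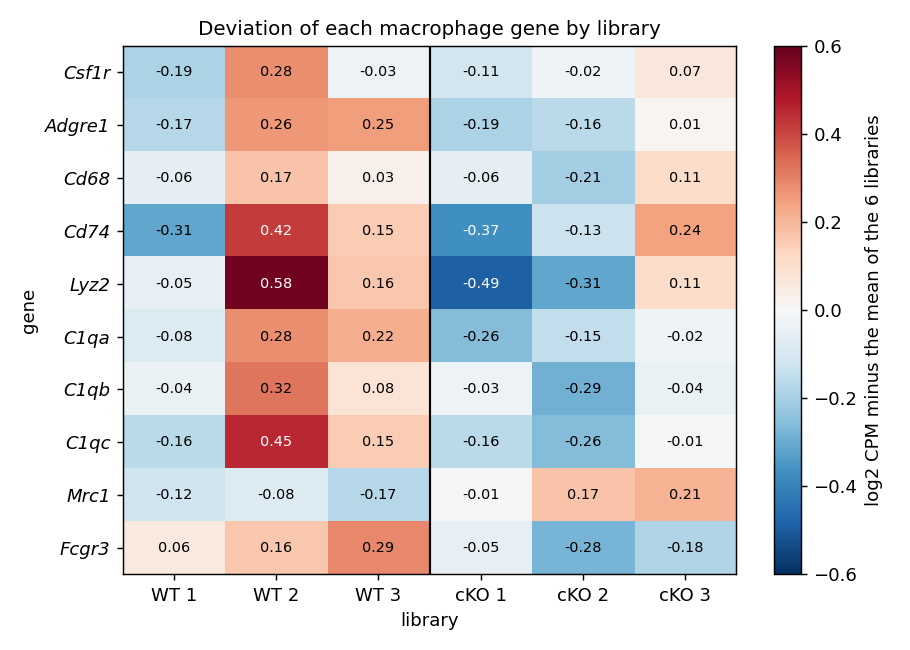
Log2 CPM of each macrophage gene in each library minus its mean over the 6 libraries, with the value in each cell (red above, blue below); the vertical line separates WT from cKO. The WT 2 column is red for 9 genes and WT 1 is blue for 9. Mrc1 is blue in every WT column (-0.12, -0.08 and -0.17) and red in cKO 2 (0.17) and cKO 3 (0.21).

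Transcript length moved with the direction of the estimates. Of tested genes with under 1500 bp of exon, 74.3% had a log2 fold change below 0, with a median of -0.13, and 15.0% had an unadjusted p under 0.05 on the lower side. Of those with 5000 bp and over, 26.6% were below 0, with a median of 0.09, and 18.4% had such a p on the higher side. The shortest band holds Cd68, Lyz2, C1qa and C1qb, and the longest holds Csf1r and Mrc1. Fcgr3 (1736 bp), with an estimate of -0.34, stood below the lower quartile of its band, -0.15, and Mrc1 (6371 bp), with 0.25, above the upper quartile of its band, 0.18. A correction for GC content and transcript length, chosen after the data were seen, gave a median of -0.22 for the 10 genes. It gave -0.26 for Fcgr3 (unadjusted p 0.00545, edgeR adjusted p 0.367), 0.18 for Mrc1 (unadjusted p 0.00712, edgeR adjusted p 0.393) and -0.37 for Lyz2 (unadjusted p 0.0302, edgeR adjusted p 0.480). For C1qa, C1qb and C1qc it gave -0.24, -0.19 and -0.27, none with an unadjusted p under 0.05.

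**Figure D4:**
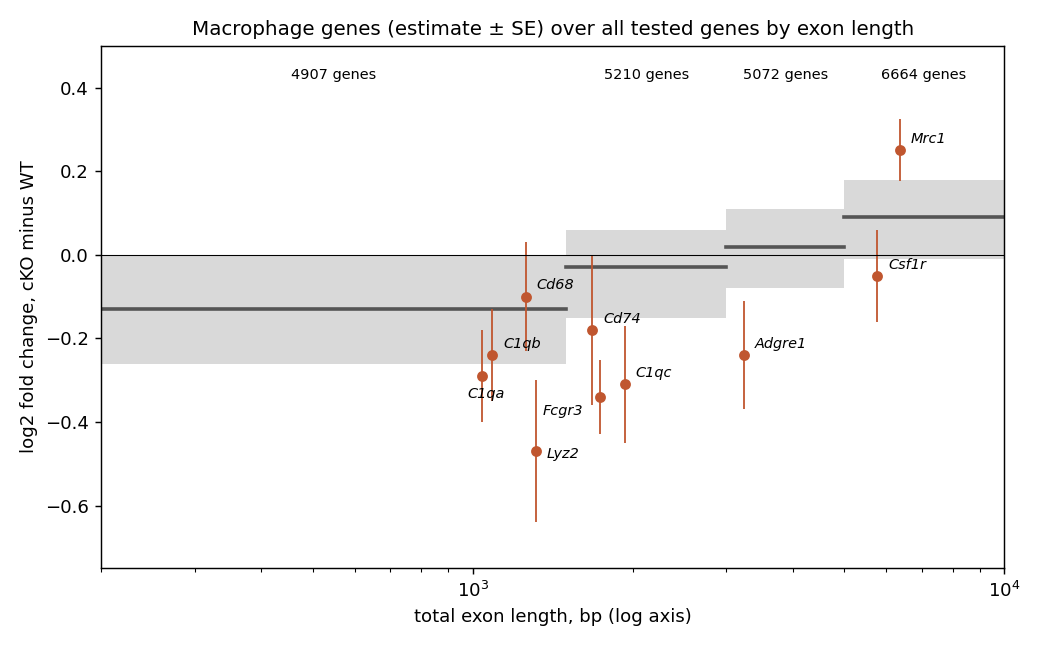
Log2 fold change of the macrophage genes (orange, estimate ± SE) against total exon length on a log axis, over the median (dark line) and quartiles (grey) of all tested genes in 4 length bands. The band medians climb from -0.13 to 0.09 with length, and 7 members lie below the grey range of their band while Mrc1 lies above it.

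Genes of the pathways in which the members act were examined next, as 6 lists with 62 genes, of which 54 were tested. edgeR called 0 of the 54, beside 0.0183% of all tested genes. Unadjusted p under 0.05 were found for 5 on the lower side, beside a background of 6.54%, and for 2 on the higher, beside 7.33%. Of the 54 estimates 38 were below 0, beside 49.3% of all tested genes, with a median of -0.10. The CPM of the groups did not overlap for 2 genes on the lower side (Cd36 and Cd14), beside 8.85% of all tested genes. On the higher side they did not overlap for 4 (Irf8, Ccr2, C3ar1 and Itgax), beside 10%. Among CSF1 ligands and myeloid transcription factors (9 of 10 tested, 6 below 0), the ligand gene Csf1 had 7.16 ± 1.39 CPM in WT and 7.10 ± 1.13 CPM in cKO (SD, n = 3 each). Csf2, the gene of another growth factor of myeloid cells, had under 3 reads in every library. Irf8, a transcription factor of the monocyte lineage, had 9.29, 9.49 and 9.09 CPM in WT and 10.5, 11.6 and 13.2 CPM in cKO, without overlap. Its log2 fold change was 0.34 (SE 0.098, unadjusted p 0.00497, edgeR adjusted p 0.288). Irf8 was called without cKO 1 (edgeR adjusted p 0.0425, where 2.82% of genes were called).

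The other complement genes gave 7 of 11 estimates below 0. The most abundant were C4b and C1s1, the gene of a protease of the classical pathway. C4b had 21.2 ± 2.40 CPM in WT and 23.4 ± 1.76 CPM in cKO (SD, n = 3 each). C1s1 had 15.9 ± 2.39 and 14.5 ± 0.912 CPM (SD, n = 3 each). C5ar1, the receptor for the complement fragment C5a, had only 8 to 34 reads per library and a log2 fold change of -1.02 (SE 0.41, unadjusted p 0.0273, edgeR adjusted p 0.315), with overlap. Of the class II antigen presentation list, 8 of 10 genes were tested and 7 estimates were below 0. H2-Ab1 had 10.4, 12.6 and 11.8 CPM in WT and 10, 9.29 and 10.6 CPM in cKO (log2 fold change -0.22, SE 0.097, unadjusted p 0.0449, edgeR adjusted p 0.350). H2-DMa, which helps load peptides, had 10.5 ± 0.269 and 10.1 ± 0.996 CPM (SD, n = 3 each).

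Other Fc receptors and their signalling partners gave 6 of 7 tested estimates below 0 and none with an unadjusted p under 0.05. Laptm5, a lysosomal protein of blood cells, had 6.28 ± 1.10 and 5.87 ± 1.03 CPM (SD, n = 3 each). Fcgr1, the high-affinity receptor for immunoglobulin G, had 29 to 72 reads per library and a log2 fold change of -0.41 (SE 0.25, edgeR adjusted p 0.480), and Fcgr4 had 1 to 14 reads and was not tested. In the scavenger and lysosome list, 10 of 13 genes were tested. Cd36, a fatty acid and lipoprotein receptor that other testis cells may carry too, had 31.1, 36.8 and 31.4 CPM in WT and 29.0, 24.2 and 28.3 CPM in cKO, without overlap. Its log2 fold change was -0.28 (SE 0.092, unadjusted p 0.00946, edgeR adjusted p 0.289). Cd36 was called without the filter on low counts (edgeR adjusted p 0.0394, where 2.07% of genes were called). Folr2, the folate receptor of resident macrophages, had 2.29 ± 0.632 and 1.65 ± 0.175 CPM (SD, n = 3 each), a log2 fold change of -0.48 (SE 0.20, unadjusted p 0.0316, edgeR adjusted p 0.323). The most abundant of that list, Ctsb (a lysosomal protease) and Axl (a receptor for the uptake of dying cells, also on Sertoli cells), had log2 fold changes of -0.15 and 0.12 with overlap.

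In the list of other leukocyte and monocyte genes, Aif1, which encodes the microglial and macrophage marker IBA1, had the highest level per exon length. It reached 192.0 ± 3.67 CPM per kb in WT, against 2.78 CPM per kb for Csf1r and 17.8 for Lyz2, the highest member. Which cells of the testis carry the Aif1 reads was not tested, so its level is not taken as one of macrophages. It had 295 ± 5.63 CPM in WT and 277 ± 17.7 CPM in cKO (SD, n = 3 each). Its groups overlapped (log2 fold change -0.09, SE 0.068, edgeR adjusted p 0.576). Cx3cr1, the fractalkine receptor, had 5.79 ± 0.875 and 6.07 ± 0.876 CPM (SD, n = 3 each). Ccr2, the chemokine receptor of recruited monocytes, had 0.817, 0.755 and 0.627 CPM in WT and 0.864, 0.947 and 1.34 CPM in cKO, without overlap (log2 fold change 0.51, SE 0.22, unadjusted p 0.0360, edgeR adjusted p 0.333). Cd14, the lipopolysaccharide co-receptor of monocytes, had 1.36, 1.25 and 1.29 CPM in WT and 1.23, 0.929 and 1.18 CPM in cKO, without overlap in the other direction (log2 fold change -0.21, SE 0.17, edgeR adjusted p 0.594). Of the 9 tested genes of this list 6 had estimates below 0, with a median of -0.09.

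Markers of other cells that could carry member genes were read beside these values. Neutrophil genes were near absent: S100a8, S100a9, Ly6g and Ngp had at most 4 reads in any library. Mpo, the 1 tested gene of the 5 in that list, had 4.07, 3.82 and 3.44 CPM in WT and 3.21, 3.18 and 3.03 CPM in cKO. Its groups did not overlap (log2 fold change -0.27, SE 0.12, unadjusted p 0.0416, edgeR adjusted p 0.346). With the other genes near absent, the Mpo values are not a measure of neutrophils. Of 5 mast cell genes, 4 had under 3 reads in every library, and Tpsb2 had 0 reads throughout. B cell genes summed to 2.62 to 3.37 CPM in WT and 2.38 to 3.12 CPM in cKO, and T cell genes to 7.42 to 9.05 and 6.54 to 8.53 CPM, both with overlap. NK cell genes summed to 0.238 to 0.277 CPM in WT and 0.164 to 0.340 CPM in cKO. The 10 macrophage genes summed to 144.0 to 180.0 CPM in WT and 141.0 to 165.0 CPM in cKO. Erythroid genes summed to 2.54 CPM in cKO 1 and to 5.43 to 6.51 CPM in the other libraries.

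Endothelial genes were mixed in direction and 0 of 10 were called. Estimates were above 0 for 4 of 6 blood endothelial and 3 of 4 lymphatic endothelial genes, with medians of 0.12 and 0.13, and Egfl7 (-0.15), Emcn (-0.15) and Pdpn (-0.09) were below 0. The 4 lymphatic endothelial genes summed to 27.0 to 30.4 CPM in WT and 31.7 to 32.8 CPM in cKO, without overlap, almost wholly from Flt4, Prox1 and Pdpn. Flt4 had 12.7, 10.4 and 11 CPM in WT and 14.3, 14.2 and 13.7 CPM in cKO, and Prox1 10.8, 10.4 and 10.1 against 11.7, 13.0 and 11.7 CPM. Their log2 fold changes were 0.30 (SE 0.090, unadjusted p 0.00570, edgeR adjusted p 0.288) and 0.22 (SE 0.085, unadjusted p 0.0246, edgeR adjusted p 0.313). The lymphatic vessel genes Ccl21a and Lyve1 had at most 35 reads in any library and overlapped. Cdh5, the cadherin of all endothelium, had 8.93, 8.26 and 8.85 CPM in WT and 9.68, 9.88 and 11.5 CPM in cKO (log2 fold change 0.25, SE 0.095, unadjusted p 0.0210, edgeR adjusted p 0.307). Blood endothelial genes as a list summed to 23.1 to 25.1 and 24.6 to 28.7 CPM, with overlap. Flt4, Prox1 and Cdh5 are also long genes, and after the correction for GC content and length their log2 fold changes were 0.13, 0.08 and 0.18. The part of endothelial cells in the Mrc1 values was not tested.

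Among the other somatic cells, Leydig genes, whose cells touch the interstitial macrophages, summed to 787.0 to 944.0 CPM in WT and 732.0 to 948.0 CPM in cKO. Hsd17b3, the enzyme of the last step to testosterone, had 31.2, 35.5 and 33.8 CPM in WT and 26.9, 23.9 and 26.5 CPM in cKO (log2 fold change -0.38, SE 0.079, unadjusted p 4.1e-04, edgeR adjusted p 0.276). Cyp11a1, the enzyme that starts steroid synthesis, had a log2 fold change of -0.22 (unadjusted p 0.0378) and Cyp17a1 one of -0.01. Sertoli genes summed to 180.0 to 207.0 and 183.0 to 219.0 CPM, with Sox9 (0.26, unadjusted p 0.00768) and Wt1 (0.16, unadjusted p 0.0442) on the higher side. Peritubular myoid genes summed to 118.0 to 122.0 and 113.0 to 135.0 CPM, with Myh11 (0.32, unadjusted p 0.0395) higher and Tagln (-0.20, unadjusted p 0.0316) lower. The edgeR adjusted p of these 7 genes ran from 0.276 to 0.977. In this fit of all 6 libraries no gene of the other cell type lists was called. Of the 15 alternative fits, 4 called Hsd17b3 and 2 called Myh11. The lowest adjusted p of Hsd17b3 was 0.00128, in edgeR without the filter on low counts, where 2.07% of genes were called. The part of other cells in the member values was not tested.

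Genes outside the lists were ranked by how closely they followed the mean centred log2 CPM of the 10 members over the 6 libraries. Among 16743 genes averaging 1 CPM or more the closest were AI413582, Dcn, Gm30853, Gm26787, 4933436F18Rik, Prkg1, Pnrc2, Cybrd1, 4930556N09Rik and Itgae, with Pearson correlations from 0.998 to 0.992. Dcn, which encodes the matrix proteoglycan decorin of connective tissue, had 40.5, 53.5 and 47.2 CPM in WT and 38.7, 38.7 and 46.5 CPM in cKO. It was highest in WT 2 and lowest in cKO 1 and cKO 2, like most members. With only 6 libraries a close match is common: 4.56% of the genes compared reached a correlation of at least 0.9.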

How the data were processed

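Total RNA of 6 testis samples was read as single-end reads of 75 bp, per the labels' protocols. The deposited values are raw counts per gene, with unstranded, same-strand and opposite-strand columns. STAR, HTSeq, DESeq2 and mm10 are named in the submitters' processing notes, without versions. The annotation release and library kit are not given in the sources used here. Opposite-strand counts, 95.991% to 96.155% of both strand columns, were used. Lines for reads outside single genes (14.756% to 16.745% of reads) were left out. Symbols, positions and exon lengths came from GENCODE M21, on the same build, which matched 52147 of 53700 identifiers. Start-site sequences came from RefSeq (GRCm38.p6).

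cKO was compared with WT in edgeR 4.0.16 (R 4.3.3): TMM factors, the filterByExpr filter (minimum count 10), then the quasi-likelihood F test with genotype as the one term. P-values were adjusted by Benjamini and Hochberg's method across 21902 genes. Standard errors were derived from the F statistic, and 95% intervals from them. The procedure was tested on simulated data. Members had 144 to 3788 reads per library. The intervals concern the group difference, given the variation between these libraries, and not the range of single libraries. Precision did not follow the counts alone: the SE was 0.13 for Cd68, with the fewest reads, and 0.17 for Lyz2. Where libraries are numbered, the order is replicate 1 to 3.

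The members and lists were chosen with earlier results of these data known. Named were all 10 members, the near-copy Lyz1, the related genes Fcgr1, Fcgr2b and Fcgr4, Msl3 and the 10 genes most like the members. Per list, the 2 most abundant genes and up to 3 with the lowest unadjusted p under 0.05 were added. Genes under 3 reads in every library were named as well. One gene that the rule names is not reported here. Genes named beyond this rule (Csf1, H2-Aa, Pdpn, Ccl21a, Lyve1, Ngp, Cd14, C3ar1, Itgax, Egfl7 and Emcn) were chosen after their values were seen. Alternatives were other scalings, filters, strand column, replicate block, robust fit, DESeq2 1.42.0, a threshold of 0.1, each library left out and, added later, the GC content and transcript length correction (loess, span 0.3).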

Additional observations from a re-analysis of the deposited data

How the results depend on the processing

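The member count of 0 called genes stayed 0 except with DESeq2 (1, Fcgr3), without the filter on low counts (2, Lyz2 and Fcgr3) and when single libraries were left out (0 to 2, the 2 being Mrc1 and Fcgr3 without cKO 1). DESeq2 gave no adjusted p for Adgre1 and Cd68. The median of the members ran from -0.36 (without WT 1) to -0.14 (without WT 2), and from -0.27 to -0.22 in the other alternatives. Csf1r, from -0.15 to 0.09 with a library left out, changed sign without WT 2 (0.09). The 4 genes called over the transcriptome became 209 with DESeq2, 757 without the filter, 49 with the replicate block, 2 with unstranded counts and 7 with the GC content and length correction, chosen after the data were seen. Leaving out a library gave 1 to 628, the highest without cKO 1. The causes were not tested. For WT and cKO libraries of one number, deviations from the group mean correlated at 0.35, 0.26 and -0.05, and the labels do not tie the numbers to litters or days, so the mice were treated as unpaired. With the replicate block 0 members were called (0.224% of all genes) and their median was -0.23. WT 1 and WT 2 correlated best with the cKO library of their own number, and WT 3 did not.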
